A study of Mus musculus with 4 samples.

Results

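The Pou5f2-high pachytene spermatocytes were the 400 cells of each of 2 mouse testis libraries with the highest mean level of 6 genes, Pou5f2, Rassf1, Fbxo43, Mllt10, Tchp and Sap30. They were 400 of 8941 cells (4.47%) in the control library A0 and 400 of 9682 cells (4.13%) in the library A10. The testes came from male ICR mice, an outbred stock, that were 3 weeks old at the start of dosing. A0 mice were given the vehicle ddH2O and A10 mice were gavaged with alginate oligosaccharides (AOS) at 10 mg/kg body weight. Neither group was given busulfan, a cytotoxic drug that depletes germ cells and that the libraries B0 (busulfan, AOS dose 0) and BA10 (busulfan, then AOS at 10 mg/kg) had in common. Per the methods, cells of 6 mice were combined into each library, so there is 1 library per group, animals cannot be told apart and no test between groups was possible.

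Meiosis turns a diploid spermatogonium into haploid spermatids. In its long prophase, homologous chromosomes pair along the synaptonemal complex and exchange strands, and pachytene is the stage at which pairing is complete. The X and Y, which can pair over a short region only, are gathered in a separate body at this stage and their genes are silenced. Pachytene cells also switch on genes for the coming divisions and for the spermatid, and the anaphase promoting complex, a ubiquitin ligase, later drives the exit from each division. Pou5f2 encodes a POU-domain transcription factor of male germ cells.

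Levels are unique molecular identifiers (UMIs, 1 per captured transcript) summed over a set of cells and scaled to a total of 1000000 (CPM). Log2 ratios have 1 CPM added on both sides. Intervals are exact 95% intervals of the counts, binomial for shares and Poisson for levels, and cover counting error only. The libraries held 150812974 UMIs (A0) and 143714595 UMIs (A10), with medians of 12685 and 10948 per cell. The Pou5f2-high cells were much deeper than the rest. Their medians were 31820 UMIs and 5052 genes in A0, against 12402 UMIs and 3329 genes in the other cells, and 31061 UMIs and 5006.5 genes in A10, against 10678.5 and 3041. Of the 400 cells, 384 (A0) and 391 (A10) lay above the median depth of their library. When every cell was thinned to 5000 UMIs, the difference in genes was nearly gone, with medians of 2154.5 and 2149 genes in A0 and 2155 and 2133 in A10. Doublets were kept. Scrublet called 11 of the 400 cells in each library (2.75%, 1.38 to 4.87), against 8.31% of the other cells of A0 and 8.91% of those of A10. A0 and A10 shared 135 cell barcodes. None of these was a Pou5f2-high cell in both libraries, while 4 such cells of A0 and 2 of A10 had a barcode found among all cells of the other library.

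The members were chosen by the levels of the 6 genes, so these levels are a description. In A0 the last cell inside had a mean value of 1.21829 and the first outside 1.21789, on the natural log scale of the deposited values. In A10 they were 1.24085 and 1.24045. No gap separates the members from the next cells, since the cell at rank 800 still had 0.979 (A0) and 1.05 (A10). UMIs of all 6 genes were seen in 281 and 310 of the members, of 5 genes in 113 and 87, and of 4 genes in 6 and 3. Pou5f2 (chromosome 13, 78024902 to 78026295, plus strand, mm10) had 277 CPM (268 to 287) in the members of A0 and 18.9 CPM in the other cells. In A10 it had 289 and 25.7 CPM. It was seen in 371 and 384 of the 400 members, and in 5% of the cells of each library chosen for round spermatid genes, at median depths of 13702.5 and 11015 UMIs. After thinning, 66.0% and 71.5% of members carried a Pou5f2 UMI, against 0.75% and 1.5% of the cells chosen for round spermatid genes. The members held 57.8% of all Pou5f2 UMIs of A0 and 51.6% of those of A10, with 8.55% and 8.64% of all UMIs.

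Rassf1 (chromosome 9, 107551555 to 107562267) encodes a scaffold protein that binds microtubules and the Hippo kinases. It had 380 CPM in the members of both libraries, against 49.3 (A0) and 59.2 CPM (A10) in other cells. Fbxo43 (chromosome 15, 36150060 to 36164884), an inhibitor of the anaphase promoting complex also called Emi2, had 47.4 against 6.26 CPM in A0 and 58.2 against 8.25 CPM in A10. Mllt10 (chromosome 2, 18055237 to 18212388), a cofactor of the histone methyltransferase DOT1L, had 1134 against 169 CPM and 1015 against 174 CPM. Tchp (chromosome 5, 114707760 to 114722327) encodes trichoplein, a keratin-binding protein of the centriole that restrains cilium growth. It had 402 against 64.7 CPM and 410 against 78.3 CPM. Sap30 (chromosome 8, 57482707 to 57487860), a subunit of the Sin3 histone deacetylase complex, had 140 against 17.3 CPM and 148 against 22.1 CPM. All 6 genes were therefore more than 5-fold higher in the members of both libraries, as the rule made them.

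Each of the 6 genes was then left out of its own choice of cells. The 6 genes were put together with earlier results of these data known. High ratios here are therefore a description and no support for the choice of cells. Cells chosen on the other 5 genes had 221 CPM of Pou5f2 in A0, against 27.3 CPM in the rest (log2 2.97), and 229 against 34.3 CPM in A10 (log2 2.70). For the other 5 genes this log2 ratio lay between 2.48 and 2.74 in A0 and between 2.21 and 2.43 in A10. Pou5f2 thus had the largest ratio of the 6 in both libraries. In bands of 400 cells ranked on the other 5 genes, its level was lower from band to band over the first 1600 cells. It was 221, 184, 93.2 and 28.4 CPM in the first 4 bands of A0 and 229, 204, 129 and 44.6 CPM in those of A10. From rank 2801 on, no band of A0 was above 6.77 CPM.

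The 6 genes differed in level across other sets of spermatocytes. Their levels in the members are in part made by the rule, which used these genes. Further sets of 400 cells per library, chosen in the same way on 6 other genes each, served for comparison. The first was chosen on Dmc1, Prdm9, Meiob, Hormad1, Sycp2 and Smc1b. Dmc1, the recombinase of early prophase, was seen in only 3.25% of its cells in each library, so it is called here the Hormad1 and Sycp2 set. The other sets were chosen on division genes (Cdk1, Ccnb1, Aurka, Cdc20, Bub1b and Plk1) and on round spermatid genes (Acrv1, Spaca1, Spam1, Tssk3, Tssk6 and Catsper3). The members shared 54 (A0) and 45 (A10) cells with the Hormad1 and Sycp2 set, 1 and 1 with the division set and 0 with the round spermatid set. Mllt10 had nearly the same level in the Hormad1 and Sycp2 set as in the members, at 1142 (A0) and 998 CPM (A10). Sap30 had 128 and 125 CPM there and Tchp 316 and 344 CPM. Pou5f2 stood apart from these, at 29.6 and 43.8 CPM in the Hormad1 and Sycp2 set. Without the cells shared with the members it had 12.6 and 23.9 CPM there. The shared cells were chosen in part on Pou5f2, so this drop is in part made by the rule and is no support. Pou5f2 had 35.0 and 42.6 CPM in the division set and 3.32 and 3.94 CPM in the round spermatid set. Rassf1 had 161 and 166 CPM in the first set and 76.7 and 104 CPM in the division set, and Fbxo43 26.9 and 31.2 CPM and 16.4 and 16.6 CPM.

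**Figure D1:**
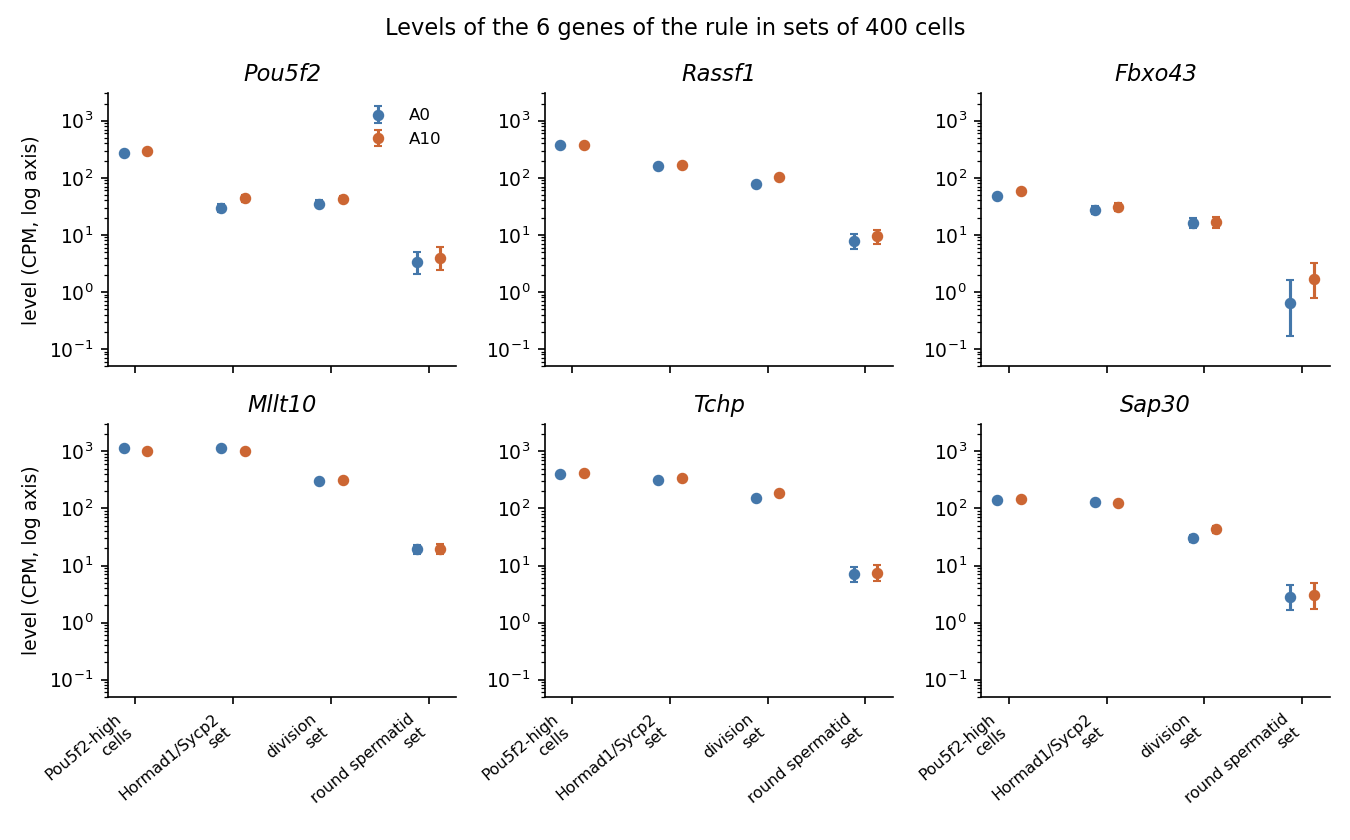
Levels in CPM (log axis) of the 6 genes that chose the cells, in the Pou5f2-high cells and in 3 sets of 400 cells chosen on other genes, with A0 in blue and A10 in orange; bars are exact 95% Poisson intervals. Pou5f2 had 277 and 289 CPM in the Pou5f2-high cells and 29.6 and 43.8 CPM in the Hormad1 and Sycp2 set, whereas Mllt10 was at 1142 and 998 CPM there, beside 1134 and 1015 CPM in the Pou5f2-high cells. The sets include the cells they share with the Pou5f2-high cells, whose own levels are in part made by the rule.

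The promoters of Pou5f2 and Sap30 are shown because these were the genes of the rule with the largest log2 ratios in both libraries (3.81 and 2.95 in A0, 3.44 and 2.69 in A10). The lines give the 250 bases before the annotated start, 5′ to 3′ in the direction of the gene, from RefSeq on GRCm38.p6. They lie at chr13:78024652-78024901 (plus strand) and chr8:57487861-57488110 (minus strand). Capitals mark GGGCGG, the GC box bound by Sp1, and CAACNG, a core of the motif of MYB factors, on either strand.
Pou5f2: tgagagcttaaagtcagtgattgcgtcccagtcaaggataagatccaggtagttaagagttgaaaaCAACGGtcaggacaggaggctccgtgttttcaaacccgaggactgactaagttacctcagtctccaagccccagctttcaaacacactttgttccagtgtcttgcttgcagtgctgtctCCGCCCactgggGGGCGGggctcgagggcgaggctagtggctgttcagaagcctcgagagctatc
Sap30: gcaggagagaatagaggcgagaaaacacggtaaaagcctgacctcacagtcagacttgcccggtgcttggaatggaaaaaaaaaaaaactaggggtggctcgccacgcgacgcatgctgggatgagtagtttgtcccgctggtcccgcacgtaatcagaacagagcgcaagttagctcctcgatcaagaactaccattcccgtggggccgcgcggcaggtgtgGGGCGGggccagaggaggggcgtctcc
Of the genes of the rule, 5 matched the promoter table, with 8 windows (Mllt10 has 3 and Rassf1 has 2), and Fbxo43 did not. GGGCGG was found in 5 of the 8 windows, of Mllt10, Pou5f2, Rassf1 and Sap30, and in 32.7% of all 32851 windows of the table. CAACNG was in 2 of the 8 (Pou5f2 and Rassf1), against 29.3% of all, and TAACNG in 1 (Mllt10), against 19.8%. CCAAT was in 2 of the 8 and in 33.8% of all. The octamer ATGCAAAT of POU factors and the cyclic AMP element TGACGTCA were in 0 of the 8 and in 1.60% and 1.55% of all windows. These motifs were chosen after the sequences were seen and are a description of letters only.

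Against the other cells of their library, the members had at least 2-fold higher levels of 2518 of 10262 genes (24.5%) and at least 2-fold lower levels of 2533 (24.7%) in A0. In A10 the counts were 2329 (23.1%) and 2353 (23.3%) of 10080. A gene was compared where it was seen in at least 5% of the cells on either side. The median log2 ratio over all genes compared was 0.41 in both libraries. Scaled to a median of 0, the counts were 1053 higher and 2918 lower in A0 and 867 and 2732 in A10, so that 26.5% and 24.1% of the genes counted were higher instead of 49.9% and 49.7%. The 2 libraries called largely the same genes. The 2143 genes higher in both were 85.1% of those of A0 and 92.0% of those of A10, and the 2309 lower in both were 91.2% and 98.1%. Log2 ratios of gene lists below are to be read against 0.41.

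The pachytene label was checked on genes the rule did not use. Of 14 pachytene genes, 5 (35.7%, beside 24.5% and 23.1% of all genes) were at least 2-fold higher and 2 lower in both libraries, and the median log2 ratio was 0.56 (A0) and 0.53 (A10). Those higher were Piwil1, a piRNA-binding Argonaute protein (278 against 74.7 CPM in A0, 305 against 83.8 in A10), Mybl1, the transcription factor that drives the pachytene program (81.1 against 25.3 and 70.7 against 26.1), Tcfl5 (423 against 124 and 385 against 127), Ybx2, an RNA-binding protein of germ cells (log2 1.49 and 1.39), and Tdrd5 (log2 2.23 and 2.07). Pgk2, the glycolytic enzyme of later germ cells, was lower, at 183 against 630 CPM and 170 against 560 CPM. Nme8 was lower as well (log2 -1.08 and -1.12). Ldhc, the lactate dehydrogenase of germ cells, and the chaperone Hspa2 lay at the median of all genes, with log2 ratios of 0.43 and 0.40 in A0 and 0.44 and 0.48 in A10. The summed list had 17005 CPM in the members of A0 and 16975 CPM in those of A10, against 12305 and 12260 CPM in other cells. The cells chosen on division genes had as much of it, 17357 and 16887 CPM, so the list does not set the members apart from them. The Hormad1 and Sycp2 set had less of the list, 13109 and 13760.5 CPM, but more Piwil1 than the members, at 669 and 627 CPM.

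The list for meiotic entry and early prophase was divided. Stra8, the retinoic acid target that starts meiosis, had 1 UMI in all members of A0, Dmc1 had 2 and Prdm9, the methyltransferase that places recombination hot spots, had 3. These genes were also rare in the other cells of A0, at 1.38, 0.914 and 1.36 CPM. Of the 14 genes of the list, 9 could be compared, of which 6 (A0, 66.7%) and 5 (A10, 55.6%) were at least 2-fold higher and 1 and 2 lower (medians 1.35 and 1.21), where 24.5% and 23.1% of all genes were higher. With no filter on low values, where genes near 0 enter, the A0 median was -0.025. Spo11, the nuclease that makes the double strand breaks, had 76.1 against 23.0 CPM in A0 and 71.4 against 21.8 CPM in A10, and was seen in 87.8% of the members of A0. Sycp3, a protein of the lateral element of the synaptonemal complex, was seen in 100% of members of both libraries and had 378 against 147 CPM and 390 against 168 CPM. Sycp2, another lateral element protein, had log2 ratios of 1.43 and 1.39, while Sycp1, the transverse filament, had 73.1 against 142 CPM and 75.2 against 159 CPM. In the Hormad1 and Sycp2 set Sycp1 reached 740 and 641 CPM. The central element gene Syce2 was lower in the members (log2 -2.54 and -2.45). Over the 8 synaptonemal complex genes, 2 (25%) were higher, close to the share of all genes (24.5% and 23.1%), and 1 (A0) or 2 (A10) lower, with medians of 0.53 and 0.64.

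Cohesin genes divided. Rec8, the meiotic kleisin, had 1.32 against 33.2 CPM in A0 and 2.17 against 26.8 CPM in A10. Smc3 and Rad21, core and mitotic subunits, had log2 ratios of -3.99 and -2.38 in A0 and -3.68 and -2.43 in A10. Smc1b and Stag3, which are meiotic partners, had 0.071 and 0.81 in A0 and 0.12 and 0.82 in A10. Among the recombination genes, 6 of 17 (A0, 35.3%) and 5 of 16 (A10, 31.2%) were at least 2-fold higher and 2 and 1 lower, where 24.5% and 23.1% of all genes were higher. Without Hormad1, Meiob and Dmc1, which chose the Hormad1 and Sycp2 set, their summed level was 453 and 452 CPM in the members and 649.7 and 638 CPM in that set. Mlh3, which acts at crossovers, had 44.4 against 9.50 CPM and 46.2 against 10.8 CPM. Hsf2bp had log2 ratios of 1.29 and 1.20, whereas Msh4, which acts before Mlh3, was lower (-1.79 and -1.90).

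Of 17 division genes compared, 5 (29.4%, beside 24.5% and 23.1% of all genes) were at least 2-fold higher (Cks2, Cdk2, Ccne2, Nek2 and Ccne1) and 3 lower (Ccnb1, Cdc25c and Plk1) in both libraries, with medians of 0.63 and 0.53. Cks2, a binding partner of cyclin-dependent kinases, had 600 against 88.3 CPM in A0 and 632 against 112 CPM in A10. Cdk2, the kinase that joins cyclin E and cyclin A, had 31.2 against 5.22 CPM and 36.4 against 6.62 CPM. Ccnb1, cyclin B1, was low in the members, at 34.4 against 188 CPM and 29.3 against 176 CPM. Cdc25c, the phosphatase that activates Cdk1, had log2 ratios of -2.32 and -2.62. The cells chosen on division genes, Ccnb1 among them, had 539 and 510 CPM of it. Genes that did not choose that set differed as well. Ccna1, the germ cell cyclin A, had 206 and 186 CPM in the members and 681 and 640 CPM in the division set, and Cks2 had 64.4 and 84.4 CPM in the division set. Along the rank by score, the summed level of the division list was 2285 CPM in the members of A0, peaked at 3522 CPM in the fourth band of 400 cells and was 1291 CPM in the ninth. In A10 it was 2256 CPM in the members and peaked at 3474 CPM in the fourth band.

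The anaphase promoting complex and its regulators had a median of 0.67 (A0) and 0.68 (A10) over 22 genes. Without Fbxo43, which chose the cells, 6 of 21 (A0, 28.6%) and 5 of 21 (A10, 23.8%) were at least 2-fold higher and 3 lower, where 24.5% and 23.1% of all genes were higher. Anapc7, Mad2l1, Anapc15, Anapc11 and Anapc4 were higher in both libraries (log2 1.73, 1.74, 1.60, 1.37 and 1.00 in A0, 1.62, 1.70, 1.41, 1.23 and 1.07 in A10). Mad2l1 encodes the checkpoint inhibitor of the complex. Cdc16, Anapc10 and Ube2c, which are 2 subunits and the ubiquitin-conjugating enzyme that serves them, were lower (log2 -2.77, -1.75 and -1.11 in A0, -2.69, -1.76 and -1.02 in A10). The activators Cdc20 and Fzr1 had log2 ratios of 0.45 and -0.0089 in A0 and 0.41 and -0.0033 in A10. Fbxo5, the relative of Fbxo43 that acts in somatic cells, had 4 UMIs in the members of A0.

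**Figure D2:**
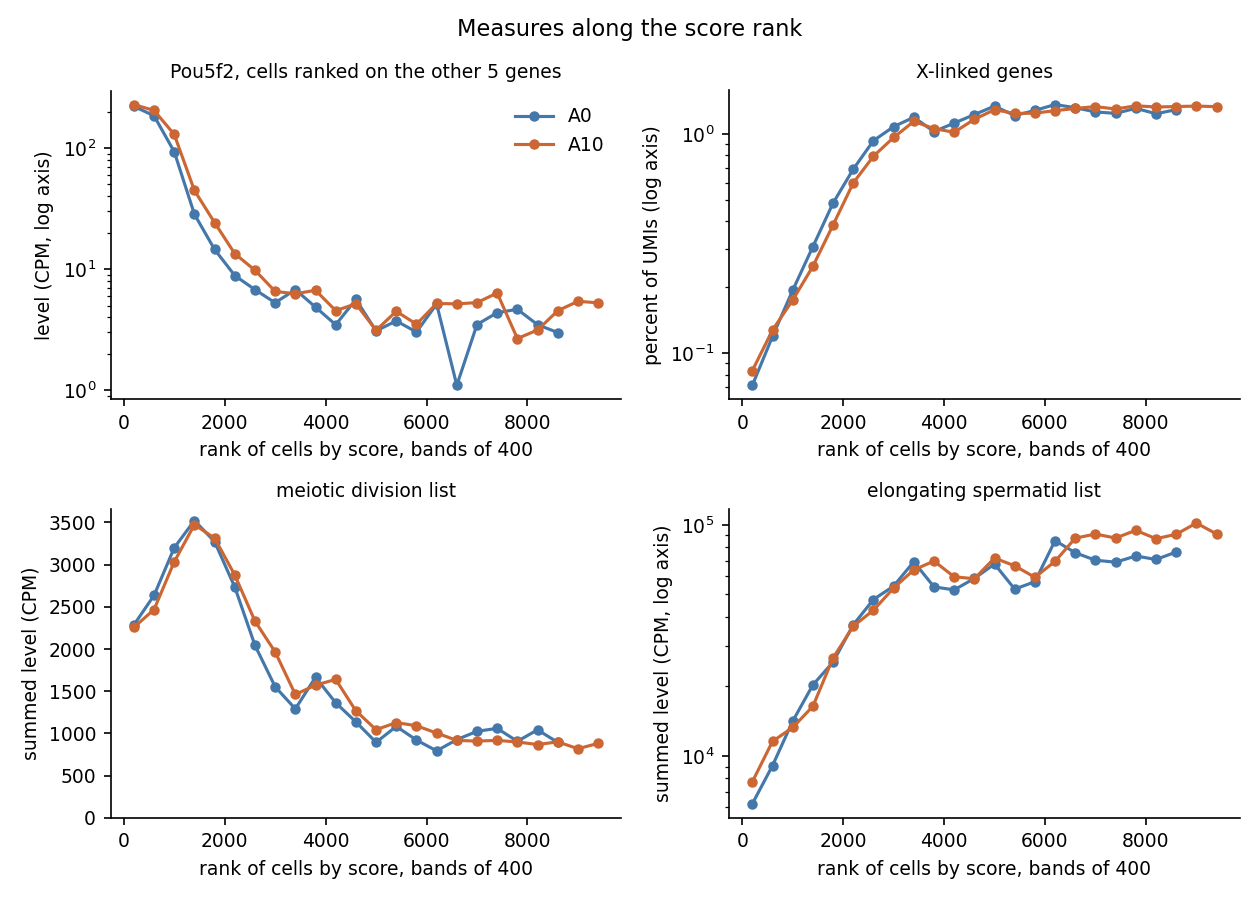
Bands of 400 cells along the rank by score, highest first (x axis), for A0 (blue) and A10 (orange): Pou5f2 with cells ranked on the other 5 genes (CPM, log axis), the X-linked share of UMIs (percent, log axis) and the summed levels of the meiotic division list (CPM) and the elongating spermatid list (CPM, log axis). The first band is the Pou5f2-high cells in all panels but that of Pou5f2; the X-linked share was lowest there, at 0.0715% (A0) and 0.0834% (A10), and the division list peaked in the fourth band.

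X-linked and Y-linked genes were low in the members. Of all UMIs of the members, 0.0715% (A0) and 0.0834% (A10) were from the 756 X-linked genes of the table, against 0.973% and 0.953% in the other cells. The ratio was 0.0735 (0.0720 to 0.0750) in A0 and 0.0875 in A10. Of the X-linked genes compared, 218 of 221 and 204 of 207 were at least 2-fold lower and 0 were higher in the members, where 24.7% and 23.3% of all genes were lower. All 10 Y-linked genes compared were lower in both libraries, with ratios of the summed share of 0.0333 and 0.0412. Among autosomes the ratio lay between 0.417 (chromosome 16) and 1.21 (chromosome 15) in A0 and between 0.407 and 1.22 in A10. Chromosome 16 carries Prm1, Prm2, Prm3 and Tnp2, the abundant protamine and transition protein genes of spermatids, and without these 4 its ratio was 0.866 and 0.891. No autosome had more than 30.4% of its compared genes lower in A0 or 27.0% in A10.

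**Figure D3:**
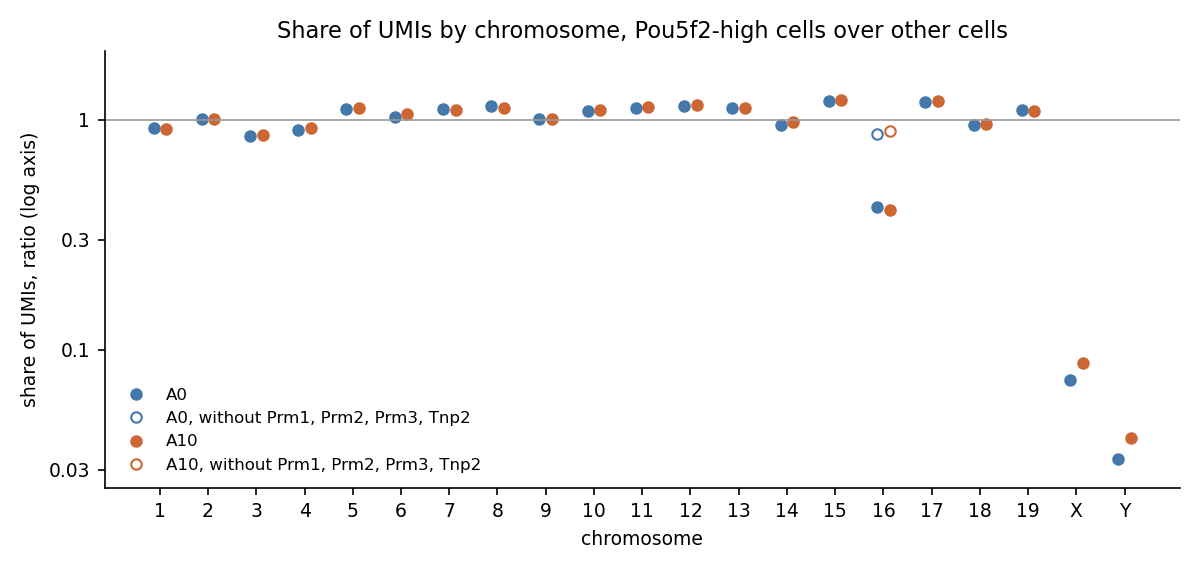
Share of UMIs from each chromosome in the Pou5f2-high cells divided by that in the other cells of the library (log axis), A0 in blue and A10 in orange; open points leave out Prm1, Prm2, Prm3 and Tnp2, on chromosome 16. X (0.0735 and 0.0875) and Y (0.0333 and 0.0412) lay far below every autosome.

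The low X-linked share held cell by cell. The median member had 0.0583% in A0 and 0.0657% in A10, and the highest 0.570% in each. The median of other cells was 1.06% and 1.04%, and 166 (1.94%) and 179 (1.93%) of them were at or below the median member. Below the highest member lay 2537 (29.7%) of the other cells of A0 and 2818 (30.4%) of those of A10. Medians were 0.109% and 0.122% in the Hormad1 and Sycp2 set, 0.184% and 0.186% in the division set and 1.44% and 1.43% in the round spermatid set. The cells of the first 2 of these sets were shallower than the members. Their median depths were 12252.5 and 10918 UMIs in A0, against 31820, and 11266.5 and 10071 UMIs in A10, against 31061. Along the rank by score the share was 0.0715%, 0.119%, 0.194%, 0.307% and 0.484% in the first 5 bands of A0 and 0.0834%, 0.128%, 0.175%, 0.249% and 0.385% in those of A10. It was thus higher in each band than in the one before. Depth and spermatid RNA changed along these 5 bands as well. From the first to the fifth, the median depth went from 31820 to 10676.5 UMIs in A0 and from 31061 to 9320 UMIs in A10. The summed elongating spermatid list went from 6216 to 25492 CPM and from 7736 to 26536 CPM. The part of either in the X-linked share was not tested. Within the members, from the highest to the lowest 100, the X-linked share was 0.0622%, 0.0664%, 0.0807% and 0.0764% in A0. It was 0.0839%, 0.0766%, 0.0892% and 0.0840% in A10. It did not rise at each step in either library, but in A0 both values past rank 200 were above those before it.

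The X-linked genes that were not 2-fold lower were Ndufa1, Emd and Las1l in A0 and Ndufa1, Emd and Pgk1 in A10. Ndufa1, a subunit of mitochondrial complex I (X, 37187588 to 37191163), had 18.2 against 12.9 CPM in A0 and 25.5 against 18.1 CPM in A10, close to the median of all genes (log2 0.47 in each). It was seen in 42.5% and 47.8% of members. Emd, the nuclear envelope protein emerin (X, 74254687 to 74261548), had 65.1 against 124 CPM and 56.7 against 108 CPM and gave 9.09% and 6.80% of the X-linked UMIs of the members. Most of the other X-linked genes with the most UMIs in members were abundant in the other cells: Akap4, a sheath protein of the sperm tail, had 51.3 against 748 CPM and 58.8 against 643 CPM, a log2 ratio of -3.84 and -3.43. The autosomal spermatid genes Prm1, Prm2 and Tnp2 had ratios of the same size (log2 -3.42, -3.37 and -3.50 in A0, and -3.23, -3.08 and -3.24 in A10). How much of the X-linked RNA of the members came from spermatids was not tested.

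Several X-linked genes of general metabolism have intronless autosomal copies that are used in male germ cells. Of the 6 X-linked parents that could be compared, 6 (A0) and 5 (A10) were at least 2-fold lower in the members, with medians of -2.11 and -2.01, as were 98.6% of all X-linked genes compared in each library. Of 9 autosomal copies, Timm8a2 was at least 2-fold higher (97.6 against 27.9 CPM in A0, 94.5 against 29.3 in A10) and Pgk2 lower (11.1% each, below the 24.5% and 23.1% of all genes that were higher and the 24.7% and 23.3% that were lower), with medians of 0.53 and 0.46, near that of all genes. Cetn1, a centrin, had log2 ratios of 0.57 and 0.46 while its X-linked relative Cetn2 had -2.57 and -2.60. Utp14b, which makes up for X-linked Utp14a in ribosome assembly, had 0.38 and 0.21 against -4.18 and -3.21 for Utp14a. Reads of near-identical copies can be divided between them, so the single values of parents and copies are uncertain. Of 10 compared genes that act in silencing of unpaired chromosomes, 6 (A0, 60%) and 5 (A10, 50%) were higher and 1 lower, where 24.5% and 23.1% of all genes were higher. Without Hormad1, the summed list had 232 and 232 CPM in the members and 559 and 536 CPM in the Hormad1 and Sycp2 set. Atr, the checkpoint kinase that starts it, had 51.5 against 13.4 CPM and 46.1 against 14.1 CPM. Setdb1, Mdc1 and Topbp1 had log2 ratios of 1.45, 1.33 and 1.16 in A0 and 1.34, 1.30 and 1.08 in A10. Trp53bp1 was lower (-2.47 and -1.75).

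Beyond the genes of the rule, the 15 genes with the highest ratios in both libraries, at 20 CPM or more in the members, were Dact1, Zfp346, Cks2, Cd177, Ccdc77, Jun, Zfhx3, Fam13c, BC049730, Gfi1, Arhgap20, Mgll, Acsl3, Mark2 and Ccp110. Dact1, a regulator of Wnt signalling, had 21.2 against 2.16 CPM in A0 and 24.7 against 3.21 CPM in A10 (log2 2.81 and 2.61). The AP-1 factor Jun had 28.6 against 4.04 CPM and 27.6 against 4.33 CPM. Mgll, which cleaves monoacylglycerols, had 206 against 36.6 CPM and 209 against 40.1 CPM. Ccp110 caps the centriole and, like Tchp, restrains cilium growth, and had 155 against 27.1 CPM and 162 against 31.4 CPM. All 15 were also at least 2-fold higher in the members than in the division set in both libraries, but the other cells over which they were chosen hold 399 of the 400 cells of that set. Fewer were set off from the Hormad1 and Sycp2 set, where 8 (A0) and 10 (A10) were lower than in the members, 3 and 1 of them at least 2-fold. Gfi1, a repressor with zinc fingers, was among these in both libraries, at 31.1 and 29.1 CPM in the members against 2.55 and 3.28 CPM in that set and 10.1 and 9.63 CPM in the division set. Cks2 (800 and 828 CPM), Mark2 (142 and 123 CPM) and Ccp110 (252 and 250 CPM) were higher there than in the members.

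The 8 genes with the lowest ratios were Spag6, Cylc1, 4921504E06Rik, Gm5800, Tex36, Odf3, Gm595 and Spata31. Spag6, of the central pair of the sperm tail, had 8.37 against 311 CPM in A0 and 7.57 against 269 CPM in A10. Cylc1, an X-linked protein of the sperm head, had 3.26 against 140 CPM and 2.90 against 115 CPM. The others had log2 ratios between -4.93 and -4.68 in A0 and between -5.03 and -4.70 in A10.

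A direct comparison with the neighbouring spermatocyte sets, with shared cells left out, named further genes, chosen after their values were seen. Over the Hormad1 and Sycp2 set, 663 of 9723 genes were at least 2-fold higher in the members of A0 and 2525 lower (A10, 422 and 2017 of 9624). The median log2 ratio over all genes was -0.27 and -0.22 here. Leaving aside the genes of the rule, Gfi1 led the genes that were higher (33.1 against 1.77 CPM and 30.7 against 2.75 CPM). Next was Pank1, which makes coenzyme A, at 37.8 against 4.20 CPM and 31.8 against 4.36 CPM. Sycp1 (53.7 against 833 CPM and 64.0 against 719 CPM), the RNA-binding protein gene Dazl (14.7 against 189 CPM and 16.6 against 170 CPM) and Esco2, which acetylates cohesin (0.839 against 26.1 CPM and 1.55 against 23.9 CPM), were lower. Over the division set, 1092 of 9532 genes were higher and 825 lower in A0 (A10, 1018 and 776 of 9470), with medians of 0.12 and 0.10. Hmgb2, a chromatin protein, led with 263 against 28.8 CPM and 309 against 31.6 CPM. Ccne2, cyclin E2, had log2 ratios of 2.83 and 3.02, and Tex101, a surface protein of germ cells, had 192 against 29.8 CPM and 212 against 32.5 CPM.

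Of the 20 genes of the piRNA pathway, 13 (A0, 65%) and 12 (A10, 60%) were at least 2-fold higher in the members and 0 lower, with a median of 1.13 in both, where 24.5% and 23.1% of all genes were higher. The log2 ratio of the summed list was 0.43 and 0.45, near the median of all genes. Piwil1 and Tdrd5 were named above. Tdrd1 and Tdrd12, which are Tudor proteins of the granules, had log2 ratios of 1.46 and 1.43 in A0 and 1.45 and 1.40 in A10. Pld6, of the mitochondrial surface, had 1.83 and 1.60, and Piwil2 1.42 and 1.40. Gtsf1, Tdrd7, Rnf17 and Asz1 had -0.58, -0.64, -0.17 and -0.11 in A0. The summed level of the list was 4642 CPM in the members of A0 and 5824 CPM in the Hormad1 and Sycp2 set.

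Relatives and partners of the genes of the rule were mixed. Among POU family genes, 4 of the 11 in the table could be compared: Pou6f1 had 47.1 against 8.20 CPM in A0 and 40.8 against 9.52 CPM in A10, Pou2f2 36.1 against 7.49 CPM and 32.2 against 7.12 CPM, and Pou2f1 log2 ratios of 0.37 and 0.41. Pou5f1, the pluripotency factor, had 3 UMIs in the members of A0. Of 14 genes of the Sin3 complex besides Sap30, which chose the cells, Arid4b and Arid4a were at least 2-fold higher in A0 (14.3%) and Arid4b in A10 (7.14%), below the 24.5% and 23.1% of all genes. The median of the list with Sap30 was 0.26 in both libraries. The scaffolds Sin3a and Sin3b had log2 ratios of 0.050 and 0.66 in A0. Of the DOT1L complex, Dot1l had 0.45 and 0.41, Mllt1 1.27 and 1.33, and Mllt3 -1.86 and -1.69. Among RASSF and Hippo genes besides Rassf1, 0 of 9 (A0) and 0 of 10 (A10) were at least 2-fold higher and 6 (66.7%) and 4 (40%) lower, where 24.7% and 23.3% of all genes were lower. The medians of the list with Rassf1 were -1.20 and -0.83. Wwtr1 and Yap1, the effectors of the pathway, had log2 ratios of -3.72 and -1.49 in A0 and -3.13 and -1.15 in A10.

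Of 24 cilium and centriole genes besides Tchp, which chose the cells, 3 (12.5%) were at least 2-fold higher (Ift20, Ccdc40 and Rsph1) and 3 lower (Spag6, Foxj1 and Cetn2) in both libraries, a smaller share than the 24.5% and 23.1% of all genes that were higher. The medians of the list with Tchp were 0.29 and 0.26. Rsph1, of the radial spokes, had log2 ratios of 1.42 and 1.29, and Foxj1, a regulator of motile cilia, had 3.41 against 59.6 CPM and 3.22 against 50.7 CPM. Of the transcription regulators of meiosis and spermatids, without the 3 that belong to the rule, 5 of 17 (29.4%) were higher in each library, near the 24.5% and 23.1% of all genes, and 7 (A0, 41.2%) or 6 (A10, 35.3%) lower, beside 24.7% and 23.3%. L3mbtl2, Tcfl5, Zfp42, Mybl1 and Hsf5 were higher (log2 2.49, 1.76, 1.73, 1.64 and 1.32 in A0). Sox5, Zfp37, Taf7l, Hsf2 and Rfx3, several of which serve spermatids, were lower (log2 -4.28, -3.64, -3.15, -2.70 and -2.39 in A0). Crem, the activator of spermatid genes, had -0.78 and -0.71.

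**Figure D4:**
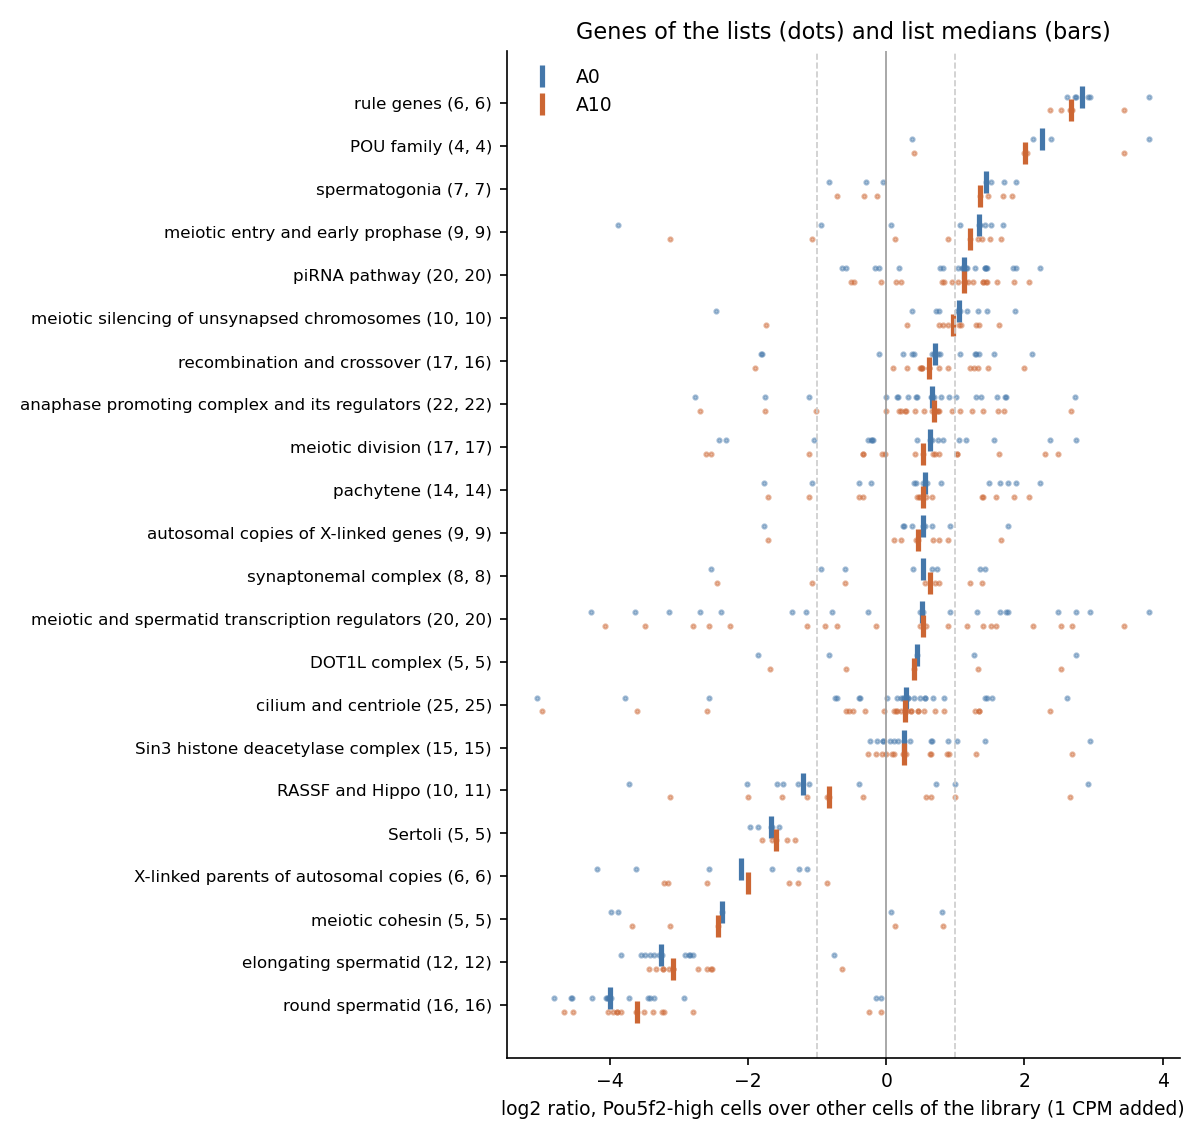
Log2 ratio of the Pou5f2-high cells over the other cells of their library, for each compared gene of a list (dots) and the list median (bars), A0 in blue and A10 in orange, with the numbers of genes compared in brackets and dashed lines at 2-fold. List medians ran from -4.00 and -3.62 (round spermatid) to 2.83 and 2.67 (the 6 genes that chose the cells), and the median of all genes was 0.41.

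Genes that mark other cells were checked in the members. The study used Stk31, Dazl, Id4, Noc4l and Ptrhd1 as spermatogonial markers. In the members of both libraries, 4 of these 5 were at least 2-fold higher than in other cells, where 24.5% and 23.1% of all genes were, which gave the spermatogonia list its medians of 1.45 and 1.36. With no filter on low values, where genes near 0 enter, these medians were -0.10 and -0.19. The summed list had 354 and 391 CPM in the members and more, 854 and 865 CPM, in the Hormad1 and Sycp2 set. Stk31 had 132 against 35.1 CPM in A0 and 151 against 42.3 CPM in A10, and Id4 87.6 against 30.1 CPM and 92.6 against 32.8 CPM. The other 7 genes of the list were low, with 9 UMIs of Zbtb16, 12 of Gfra1, 1 of Kit, 24 of Nanos3, 3 of Sohlh1, 48 of Uchl1 and 0 of Sall4 over all members of A0. They were also low in the other cells of A0, where Zbtb16 had 0.812 CPM, Gfra1 2.74 CPM and Kit 2.52 CPM. The round spermatid list was low (14 of 16 genes lower in both libraries, where 24.7% and 23.3% of all genes were, medians of -4.00 and -3.62), apart from Acr (log2 -0.077 in each) and Zpbp (-0.15 and -0.25), which are acrosome genes. The elongating spermatid list was low in the same way (11 of 12 lower, medians of -3.27 and -3.09), but every member carried its RNA. Its summed level per member ran from 3152 to 51202 CPM in A0 and from 4220 to 56402 CPM in A10, with medians of 4989 and 5959 CPM. Whether this was free RNA or RNA of the cells themselves was not tested.

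Markers of somatic cells were sparse in the members. The summed lists came to 10.9 and 11.4 CPM for Leydig cells (17.2 and 23.6 CPM in other cells), 18.5 and 27.3 CPM for Sertoli cells (76.3 and 90.9), 6.05 and 1.85 CPM for macrophages (15.6 and 12.5), 0.543 and 0.644 CPM for endothelial cells and 2.48 and 1.45 CPM for peritubular myoid cells. Per member, the Leydig sum ran from 0 to 162 CPM in A0 and from 0 to 145 CPM in A10, and the Sertoli sum from 0 to 396 CPM and from 0 to 508 CPM. The macrophage sum reached 1962 CPM in the highest member of A0 and 86.1 CPM in that of A10, and was above 0 in 20 and 21 of the members. UMIs of the defining genes were few, with 5 of Insl3, 0 of Cyp11a1, 1 of Sox9, 0 of Wt1 and 0 of Csf1r over all members of A0. In A0, 2 of 8 Leydig, 1 of 10 Sertoli, 2 of 9 macrophage, 3 of 7 endothelial and 1 of 6 myoid genes had no UMI in any member.

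AOS was compared with vehicle within the members, which asks whether AOS changed these spermatocytes in mice without busulfan. The profiles of A10 and A0 were close. Of 9513 genes compared, 91 (0.957%) were at least 1.5-fold higher and 78 (0.82%) lower in A10, of which 14 and 14 were past 2-fold. These counts depended on the settings, with 264 and 211 when 200 cells per library were taken, 7 and 6 with 10 CPM added in place of 1, and 84 and 129 when cells were chosen after thinning, where more genes were lower than higher. The median log2 ratio was -0.010, and 5% and 95% of genes lay below -0.32 and 0.33. The 6 genes that chose the cells were within 1.5-fold (log2 -0.16 to 0.29). Their levels were fixed in part by the choice of cells. Of 229 genes of the lists that were compared, 2 were at least 1.5-fold higher and 0 lower. They were Utp14a (1.47 and 3.54 CPM, log2 0.88) and Prm1, a protamine (1250 and 1922 CPM, log2 0.62). Prm1 was also higher in A10 in the other cells, with 13343 and 18027 CPM. The elongating spermatid list as a whole had a median of 0.26 in the members and 0.028 in the other cells. With 1 library per group, the AOS dose cannot be told apart from the animals pooled or from the handling of each library.

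The genes with the highest ratios of A10 over A0 were Cmya5, Arhgap8, Eid1, Speer1, Yipf7 and Kcnab1. All but Speer1 were seen in at least 5% of the members in A10 only. They thus passed the filter through the library where they were high, and their rank is no support for a difference. Speer1, a germ cell gene of a family of similar copies on chromosome 5 (11341516 to 11346286), had 105 CPM in the members of A0 and 381 CPM in those of A10 (log2 1.86). In the other cells it had 23.9 and 81.9 CPM. Reads can be divided between the copies, so its values are uncertain. Cmya5, a gene best known from muscle (chromosome 13, 93040713 to 93144724), had 0 UMIs in the members of A0 and 47 in those of A10. Against 3 counts in place of 0, this was 16.3-fold higher, with the 47 UMIs taken as free of error. With 1 CPM added on both sides the log2 ratio was 2.26. The exact interval, taken on the counts with nothing added, had a lower limit of log2 3.67, which is below 16.3-fold. No A0 cell of any kind had a Cmya5 UMI, while the other cells of A10 had 162. Arhgap8, Eid1, Yipf7 and Kcnab1 were low, with 1, 7, 9 and 10 UMIs in the members of A0 and 49, 61, 58 and 47 in those of A10.

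The genes with the lowest ratios of A10 over A0 were Fntb, Dapp1, Cela2a, Cd320, Gdf9 and Dusp26. Fntb, a subunit of protein farnesyltransferase (chromosome 12, 76765589 to 76921412), was at 26.2 CPM (A0) and 6.52 CPM (A10), a log2 ratio of -1.85, and 12.8 and 4.89 CPM in the other cells. Dapp1, an adaptor of phosphoinositide signalling (chromosome 3, 137931007 to 137981545), had 67.3 and 21.2 CPM (log2 -1.62), and 30.2 and 12.1 CPM in the other cells. Cd320, the receptor for vitamin B12 carriers (chromosome 17, 33843091 to 33849774), had 88.8 and 30.6 CPM (log2 -1.51), and 25.8 and 14.9 CPM in the other cells. It was seen in 52.5% and 38.8% of the members. Cela2a, Gdf9 and Dusp26 were below 7 CPM in both libraries, with log2 ratios of -1.52, -1.30 and -1.28. Dusp26 passed the filter through A0 only, where it was seen in 7% of the members, against 2% in A10. Cd177, one of the 15 leading genes of the members, was also lower in A10, with 72.1 CPM in A0 and 34.8 CPM in A10 (log2 -1.03), and had 10.0 and 5.47 CPM in the other cells. Fntb, Dapp1, Cd320 and Cd177 were thus lower in A10 in the other cells as well, while Dusp26 had a log2 ratio of -0.24 there. Of all genes past 1.5-fold in the members, 12 of the 91 higher (13.2%) and 12 of the 78 lower (15.4%) were past it in the other cells too. Of all 8850 genes compared in the other cells, 25 were higher and 34 lower. Most of the 91 and of the 78 were thus not past 1.5-fold there. Members and other cells come from the same 2 libraries, so the overlap is no separate support for a difference.

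**Figure D5:**
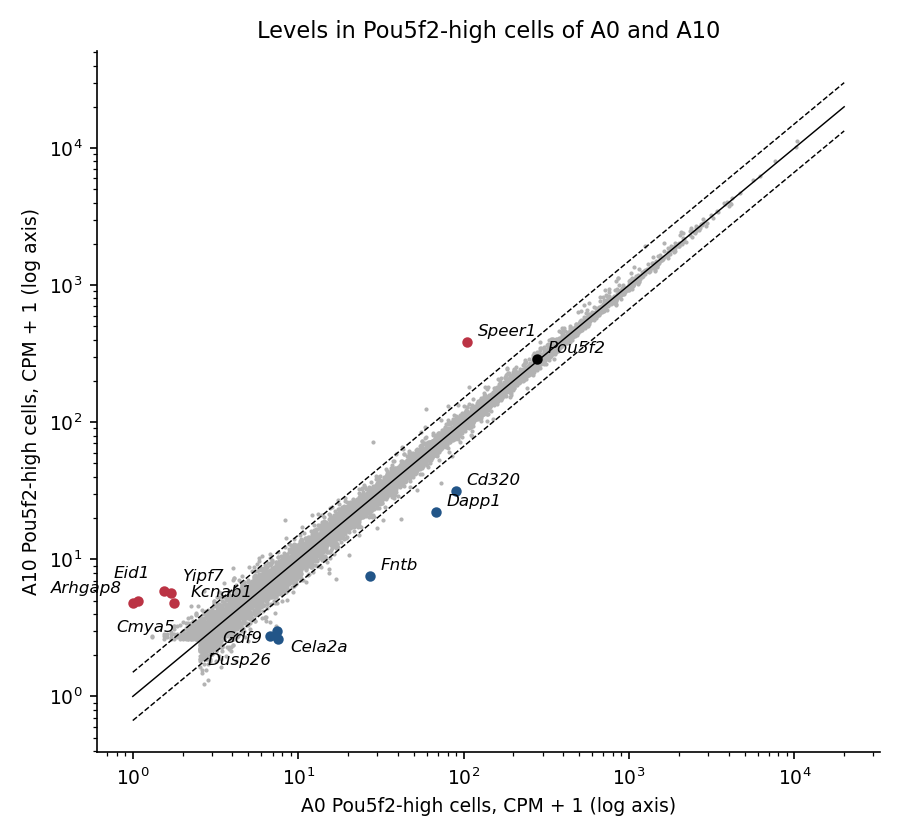
Level of each compared gene in the Pou5f2-high cells of A0 (x axis) and A10 (y axis), as CPM + 1 on log axes, with the line of equality and dashed lines at 1.5-fold; red points are the 6 highest ratios, blue points the 6 lowest and the black point Pou5f2. Most genes lay between the dashed lines, and Speer1 (105 and 381 CPM) lay farthest outside among the abundant genes.

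The lowest score of the members of A0 was applied to the other libraries. It was reached by 445 cells of A10 (4.60%, 4.19 to 5.03), 5 of 4659 cells of B0 (0.107%, 0.0349 to 0.25) and 184 of 3778 cells of BA10 (4.87%, 4.21 to 5.61). The interval of BA10 thus held the share of A0 (4.47%) in the same denominator, all cells of a library. The share of A0 was fixed by the rule, which set the number of members, so it has no counting interval of its own. The error of the score used as the cut was not tested. Depth differed, with medians of 4214 UMIs per cell in B0 and 17989 in BA10. After thinning to 5000 UMIs the score was recomputed and the cut was 1.08579 in place of 1.21829. The cells of A0 that reached it were thus not the same cells. The shares were then 4.72% (A0), 4.92% (A10), 1.12% (B0, where 16 of the 1424 cells deep enough reached the cut) and 9.66% (BA10). B0 stayed below A0, whereas BA10 was above it. The libraries also differed in their other cells. By the clusters of the paper, BA10 had a smaller share of spermatids than A0 and larger shares of spermatocytes and spermatogonia. The paper also gives BA10 a smaller share of Leydig and Sertoli cells than A0. The somatic sums that follow are therefore levels of RNA, not numbers of cells. Over all cells, the summed Leydig list had 20570 CPM in B0 and 639 CPM in BA10, against 16.7 CPM in A0, and the Sertoli list 3435 and 372 CPM, against 71.4 CPM. The part of these differences in the shares was not tested. The 5 cells of B0 had 127 CPM of Pou5f2, an X-linked share of 0.190%, 14257 CPM of the pachytene list and 604 CPM of the Leydig list. The 184 cells of BA10 had 281 CPM of Pou5f2 and an X-linked share of 0.0721%, beside 277 CPM and 0.0715% in A0, and 17201 CPM of the pachytene list beside 17005 CPM. Their median depth was 42812 UMIs, against 31820. They had 161 CPM of the Leydig list, against 10.9 CPM in A0, and 1451 CPM of the elongating spermatid list, against 6216 CPM. The part of these RNAs in the other values was not tested.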

How the data were processed

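Testis cells were measured by 10x Genomics 3' v2 single-cell RNA-seq. Per the labels and the methods, UMIs were counted with Cell Ranger 2.2.0 on mm10 and scaled in Seurat, after a minimum of 200 genes per cell and of 3 cells per gene. The authors deposited natural log values, ln(1 + 10000 times the share of a gene in the UMIs of its cell), for 18419 genes and 27060 cells. Values were turned back into UMIs, which were whole within 0.001 for 100% of values above 0. How cells were called is not settled, since the methods force 1 cell number that no library has.

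Cells were ranked by the mean deposited value of the 6 genes, and ties followed the column order. The members and lists were chosen with earlier results of these data known. UMIs were summed over cells, and genes seen in at least 5% of the cells on either side were compared, at 2-fold for members over other cells and 1.5-fold for A10 over A0. Named genes were the genes of the rule, the 15 highest and 8 lowest ratios (by the library nearer to 0, with at least 20 CPM on the higher side), the 6 highest and 6 lowest ratios of A10 over A0, and list genes. Deposited values and UMIs were handled with numpy 2.4.6 and scipy 1.17.1, Scrublet was run in scanpy 1.11.5 at an expected rate of 6%, and 17546 symbols matched GENCODE M21. With 1 library per group no test was run. The calculation was tested on simulated counts. Alternatives were other ranks, numbers of members, filters, weights, pseudocounts and scaling.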

Additional observations from a re-analysis of the deposited data

How the results depend on the processing

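No paired analysis was possible because each group is 1 library. Ranked after thinning to 5000 UMIs, 64.2% and 62.5% of the members (A0 and A10) were chosen again. Thinning itself adds counting noise, and the part of depth in the choice was not tested. The X-linked ratio stayed below 0.11 under every alternative run: it was 0.0947 and 0.109 (A0 and A10) after thinning, 0.0894 and 0.101 with 800 cells, 0.0711 and 0.0822 as the mean over cells, 0.0643 and 0.0815 without Scrublet calls, and 0.0690 (A0) with 200 cells. The counts of genes 2-fold higher were 1060 and 914 with 10 CPM added and 1053 and 867 scaled to a median of 0, and those 2-fold lower were 1600 and 1529 with 10 CPM added. The counts for A10 over A0 depended on the settings most. They were 264 higher and 211 lower with 200 cells, 37 and 46 with 800 cells, 7 and 6 with 10 CPM added, 154 and 139 with no filter, and 84 and 129 after thinning. The cause was not tested.

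The pachytene median was 0.50 after thinning and 0.49 as the mean over cells (A0), and 0.15 and 0.12 when scaled (A0 and A10). The division median was 0.43 and 0.41 with 10 CPM added, 0.38 and 0.37 with 200 cells, 0.45 and 0.41 with no filter, 0.22 and 0.12 when scaled, and for A10 also 0.69 after thinning, 0.79 with 800 cells and 0.63 as the mean over cells. Chosen on the other 5 genes after thinning, log2 ratios in A0 and A10 were 3.26 and 3.21 for Pou5f2, 2.92 and 2.83 for Rassf1, 2.89 and 2.79 for Mllt10, 2.72 and 2.54 for Tchp, 2.97 and 2.78 for Sap30, and 2.71 for Fbxo43 (A10). After thinning, with the score and the cut recomputed, the cells that reached the cut were 1.12% of B0 and 9.66% of BA10. Signs turned for lists near the median of all genes when scaled: Sin3 (-0.15 and -0.15), cilium and centriole (-0.13 and -0.15) and DOT1L in A10 (-0.0046). With no filter they turned for POU (-0.091 and -0.0043), spermatogonia (-0.10 and -0.19) and early prophase in A0 (-0.025), since genes near 0 then enter. Depth limits genes near 0 UMIs, and intervals cover counting error, not animals or libraries.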
